A study of Mus musculus with 12 samples.

Results

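The genes described here are 10 heat shock genes, Hspa1a, Hspa1b, Hsph1, Dnajb1, Hspb1, Hsp90aa1, Hspa8, Hspd1, Hspe1 and Bag3, out of 52962 genes in the table, and the sum of the near-identical copies Hspa1a and Hspa1b. They were selected on measured values, because genes of this group stood higher at 8 than at 4 weeks of age in the non-β-cell fraction and lower in the β-cell fraction. All 10 were among the 15598 genes that passed the filter on low counts. RNA was sequenced from islet cells of female NOD mice, an inbred strain that develops autoimmune diabetes. The 4 groups were 4-week β-cells, 8-week β-cells, 4-week non-β-cells and 8-week non-β-cells, with 3 samples in each and 12 in all. No group had received a treatment or carried an engineered allele. Per the study's methods, each sample was a pool of 3 mice, mouse islets were cultured overnight and dispersed with trypsin in a warm, vortexed incubation, and the cells were sorted by autofluorescence after removal of CD45-positive leukocytes. The non-β-cell fraction therefore holds several cell types, and in bulk RNA fewer cells of a type and less RNA per cell cannot be told apart.

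Heat shock proteins are molecular chaperones that bind unfolded protein chains and help them to fold, to stay soluble or to be degraded. HSP70 proteins bind short hydrophobic stretches of a client, J-domain proteins such as the Dnajb1 product hand clients to HSP70 and stimulate its ATPase, and nucleotide exchange factors such as the Hsph1 and Bag3 products release them again. Under proteotoxic stress the heat shock factor HSF1 forms trimers and binds heat shock elements, inverted repeats of a short unit, in the promoters of inducible genes. Hspa1a and Hspa1b are the strongly inducible HSP70 genes, while Hspa8 is the constitutive form. The working name of the group is cytosolic heat shock genes, but Hspd1 and Hspe1 encode the chaperonin of the mitochondrial matrix and its lid, so the name does not hold for this pair.

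The promoter sequences are shown because the binding site of HSF1 is the feature best known to join these genes. RefSeq promoter windows, 250 bases before to 50 bases after each annotated start site on GRCm38, were given for 8 of the 10 genes, all but Hsp90aa1 and Hspa8. They were searched for a 2-unit element, GAANNTTC or TTCNNGAA, each of which is its own reverse complement and so covers both strands, and for 3-unit elements, in which the 2 forms overlap by 1 unit. The 2-unit element lay in at least 1 window of 7 of the 8 genes (87.5%), compared with 17% of the 27025 genes that have a window. The 3-unit element lay in 3 of the 8 (37.5%), compared with 0.662% of all genes with a window. Hspd1 and Hspe1, both among these, share the same stretch of DNA. The promoters of Hspa1a and Hspa1b are near-identical, so the shares count some sequence more than once. Dnajb1, the J-domain partner of HSP70, was the exception, with neither form in its 2 windows. Among 83 other listed chaperone and heat-inducible genes with a window, 17 (20.5%) held the 2-unit and 2 (2.41%) the 3-unit element. A match is a string of letters and not a measured binding site.

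Hspa1a and Hspa1b lie in tandem on the minus strand of chromosome 17, Hspa1a at 34969190 to 34972156 and Hspa1b at 34956436 to 34959238, and each has a single exon. The 130 bases before their start sites are shown whole, 5′ to 3′ on the strand of the gene, because they were 99.2% identical and the values of these copies lead the results. Capitals mark the 2-unit element, which begins 104 bases before the start site in both.
Hspa1a, chr17:34972157-34972286, minus strand: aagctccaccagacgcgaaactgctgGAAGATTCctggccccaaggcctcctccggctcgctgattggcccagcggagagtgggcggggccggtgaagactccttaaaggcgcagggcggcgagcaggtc
Hspa1b, chr17:34959239-34959368, minus strand: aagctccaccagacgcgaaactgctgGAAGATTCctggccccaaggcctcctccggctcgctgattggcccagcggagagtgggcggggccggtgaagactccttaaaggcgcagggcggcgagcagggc

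For the other genes 30 bases around each element are shown, on the strand of the gene and with the element in capitals, to compare its length and position. Hspd1 and Hspe1 are transcribed head to head on chromosome 1, at 55077835 to 55088243 on the minus and 55088132 to 55091307 on the plus strand. The same 18-base element of 4 alternating units, the longest found in the group, lies in a window of both. For Hspd1 it lies in the window of the start site at 55087932, and the window of that at 55088243 holds none. Hspb1 has a pair of 2-unit elements, Hsph1 has a 3-unit element just after and a 2-unit element before its start sites, and the element of Bag3 lies after its start site.
Hspe1, chr1:55088053-55088082, plus strand: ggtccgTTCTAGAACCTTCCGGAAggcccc
Hspd1, chr1:55088053-55088082, minus strand: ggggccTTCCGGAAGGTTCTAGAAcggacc
Hsph1, chr5:149636279-149636308, minus strand: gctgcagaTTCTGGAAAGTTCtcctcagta
Hsph1, chr5:149636351-149636380, minus strand: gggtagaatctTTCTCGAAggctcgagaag
Hspb1, chr5:135887791-135887820, plus strand: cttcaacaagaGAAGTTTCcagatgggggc
Hspb1, chr5:135887811-135887840, plus strand: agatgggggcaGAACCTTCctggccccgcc
Bag3, chr7:128523603-128523632, plus strand: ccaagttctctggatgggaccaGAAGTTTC

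**Figure D1:**
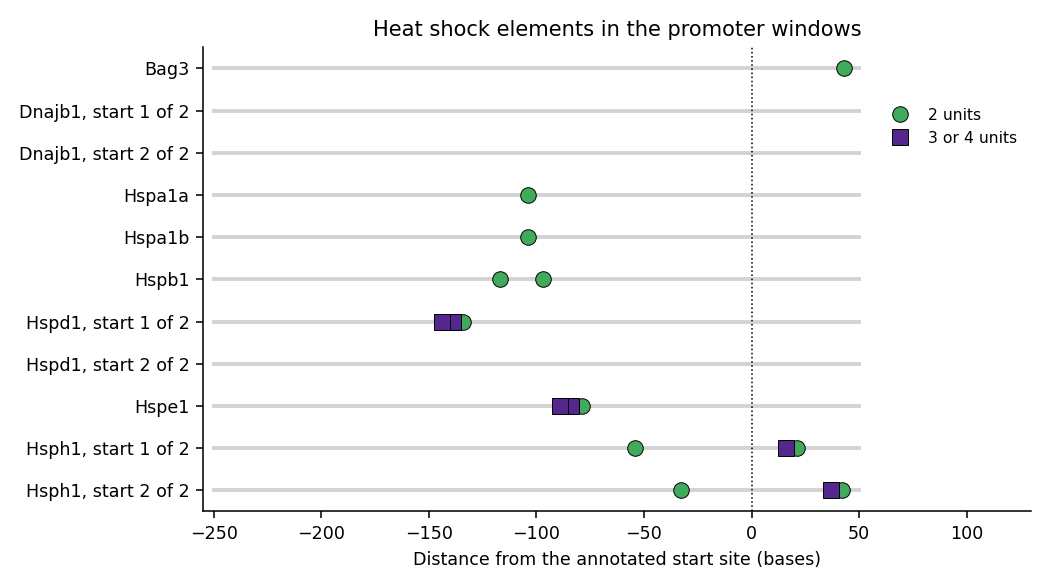
Position of heat shock elements in the promoter windows of the 8 genes that have one, in bases from each annotated start site (grey lines span 250 bases before to 50 after it; circles mark 2-unit and squares 3-unit or 4-unit elements at their first base). The Hspa1a and Hspa1b elements sit at the same distance, 104 bases before the start site, and the windows of Dnajb1 hold none.

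Libraries held 13755106 to 27040652 estimated counts. Levels are given as CPM, read counts relative to the size of the library, with sizes normalised by the trimmed mean of M-values, and as CPM per kb of exon where genes are compared with each other. The lowest count of any of the 10 genes in any library was 147, for Hspb1. Values after ± are SDs over 3 samples, and limma-voom gave the log2 changes, their standard errors (SE) and p-values, with Benjamini-Hochberg adjustment over the 15598 tested genes, with a threshold of 0.05. The p-values measure the spread between these pooled samples. Because the age changes and their difference chose the genes, both are described for the 10 genes without a test.

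The inducible HSP70 copies differed most between the ages in non-β-cells. In replicates 1, 2 and 3, Hspa1a was at 46.1, 27.4 and 49.3 CPM in 4-week non-β-cells and at 581, 576 and 667 CPM in 8-week non-β-cells. It was at 299, 293 and 263 CPM in 4-week β-cells and at 236, 191 and 247 CPM in 8-week β-cells. No pair of groups overlapped, and the order from low to high was 4-week non-β-cells, 8-week β-cells, 4-week β-cells and 8-week non-β-cells.

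Hspa1b followed the same order, again without overlap. It was at 56, 21.5 and 51.3 CPM in 4-week non-β-cells and at 610, 637 and 745 CPM at 8 weeks. In β-cells it went from 457, 491 and 461 CPM to 270, 204 and 257 CPM. The log2 change between 4 and 8 weeks was 3.93 (SE 0.18) for Hspa1a and 4.05 (SE 0.26) for Hspa1b in non-β-cells, and -0.35 (SE 0.17) and -0.95 (SE 0.24) in β-cells.

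How counts are divided between these copies is uncertain. Their coding sequences were 99.4% identical, and 47.1% of the 100-base words of the Hspa1a transcript, the length of the reads, also occur in that of Hspa1b. The sequences after the stop codon were 48.1% identical, which leaves part of each transcript to tell them apart. The sum of both copies does not depend on this division. It was 102, 48.9 and 101 CPM in 4-week non-β-cells and 1191, 1212 and 1412 CPM at 8 weeks, a 15.2-fold ratio of means. In β-cells the sum was 756, 785 and 724 CPM at 4 weeks and 506, 395 and 504 CPM at 8 weeks, a ratio of 0.621. The fitted log2 changes of the sum were 3.99 (SE 0.22) in non-β-cells and -0.70 (SE 0.22) in β-cells. Hspa1b made up 60.4% to 63.6% of the sum in 4-week β-cells and 51.1% to 53.4% in 8-week β-cells, ranges that did not overlap. In non-β-cells it made up 43.9% to 54.9% at 4 weeks and 51.2% to 52.8% at 8 weeks, ranges that did. These shares rest on the uncertain division and are a description.

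The size of the non-β-cell change depended in part on a single library. Non-β-cell replicate 2 at 4 weeks had the lowest Hspa1 values of all 12 libraries, and without it the log2 change was 3.62 for Hspa1b and 3.65 for the sum.

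The HSP70 partners Dnajb1, Hsph1 and Bag3 also stood higher at 8 than at 4 weeks in all non-β-cell libraries. Dnajb1, on chromosome 8 at 83608193 to 83612653, was at 180, 144 and 203 CPM in 4-week non-β-cells and at 743, 795 and 843 CPM at 8 weeks. In β-cells it was at 200, 201 and 225 CPM and then at 126, 105 and 120 CPM. At 4 weeks the fractions overlapped, and at 8 weeks non-β-cells stood 6.79-fold above β-cells. The log2 changes with age were 2.19 (SE 0.13) in non-β-cells and -0.84 (SE 0.13) in β-cells.

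Hsph1, on chromosome 5 at 149614287 to 149636376, encodes HSP110, an exchange factor of HSP70. It was at 779, 788 and 786 CPM in 4-week β-cells, the group with the highest level, and at 305, 285 and 316 CPM at 8 weeks. In non-β-cells it went from 126, 119 and 133 CPM to 428, 258 and 297 CPM. At 8 weeks the fractions overlapped. The log2 changes were -1.38 (SE 0.15) in β-cells and 1.35 (SE 0.15) in non-β-cells, or 1.14 in non-β-cells without replicate 1 at 8 weeks, the library at 428 CPM.

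Bag3 encodes the exchange factor that links HSP70 to selective autophagy, and it lies on chromosome 7 at 128523616 to 128546981. Its levels varied least over the 12 libraries: 74.1, 69.9 and 67.7 CPM in 4-week β-cells, 82.5, 77.7 and 77.8 CPM in 8-week β-cells, 72, 74.7 and 92.7 CPM in 4-week non-β-cells, and 116, 115 and 114 CPM in 8-week non-β-cells. It was the only one of the 10 genes whose β-cell libraries at 8 weeks all stood above those at 4 weeks. The log2 changes were 0.17 (SE 0.10) in β-cells and 0.54 (SE 0.10) in non-β-cells, so both had the same sign. Without non-β-cell replicate 3 at 4 weeks the latter was 0.66.

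The small heat shock protein gene Hspb1 encodes HSP27, an ATP-independent holdase, and lies on chromosome 5 at 135887919 to 135889563. Its counts were the lowest of the group. It was at 8.68, 7.19 and 12.1 CPM in 4-week non-β-cells and at 51.6, 45.1 and 53.4 CPM at 8 weeks. In β-cells it was at 36.3, 35.8 and 54 CPM and then at 19.1, 13.9 and 21.7 CPM. The highest groups, 4-week β-cells and 8-week non-β-cells, overlapped. The log2 changes were 2.46 (SE 0.24) in non-β-cells and -1.21 (SE 0.20) in β-cells.

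The abundant chaperones were lower at 8 than at 4 weeks in β-cells and differed less between ages in non-β-cells. Hsp90aa1, the stress-inducible HSP90 gene on chromosome 12 at 110690605 to 110702728, was at 2812, 3288 and 3604 CPM in 4-week β-cells and at 1162, 1159 and 1240 CPM at 8 weeks. In non-β-cells it went from 706, 630 and 760 CPM to 1103, 854 and 939 CPM, also without overlap. The log2 changes were -1.44 (SE 0.12) in β-cells, the lowest of the 10 genes, and 0.46 (SE 0.12) in non-β-cells.

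Hspa8, on chromosome 9 at 40800984 to 40810087, had the highest level of the group, 893 CPM per kb in 4-week β-cells. It was at 3359, 3428 and 4737 CPM in 4-week β-cells and at 1978, 2003 and 1870 CPM at 8 weeks. In non-β-cells it was at 935, 896 and 1286 CPM and at 1224, 1378 and 1463 CPM, and these ranges overlapped. Its log2 changes were -0.96 (SE 0.16) in β-cells and 0.40 (SE 0.15) in non-β-cells.

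The mitochondrial chaperonin genes were also lower at 8 than at 4 weeks in β-cells. Hspd1, which encodes HSP60, was at 640, 639 and 790 CPM in 4-week β-cells and at 355, 345 and 335 CPM at 8 weeks. In non-β-cells it was at 223, 209 and 253 CPM and then at 222, 199 and 209 CPM, with overlap between the ages. Its log2 changes were -0.99 (SE 0.11) in β-cells and -0.12 (SE 0.11) in non-β-cells, the only negative value of the group in that fraction.

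Hspe1, which encodes the lid HSP10, was at 117, 116 and 212 CPM in 4-week β-cells and at 66.7, 56.5 and 58.9 CPM at 8 weeks. In non-β-cells it went from 35.9, 37.3 and 43.5 CPM to 46, 50 and 53.3 CPM, without overlap. Its log2 changes were -1.23 (SE 0.19) in β-cells and 0.36 (SE 0.21) in non-β-cells, and the β-cell value was -0.94 without replicate 3 at 4 weeks, the library at 212 CPM. Replicate 3 at 4 weeks was also the highest β-cell library for Hspa8, Hspd1, Hsp90aa1, Hspb1 and Dnajb1.

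**Figure D2:**
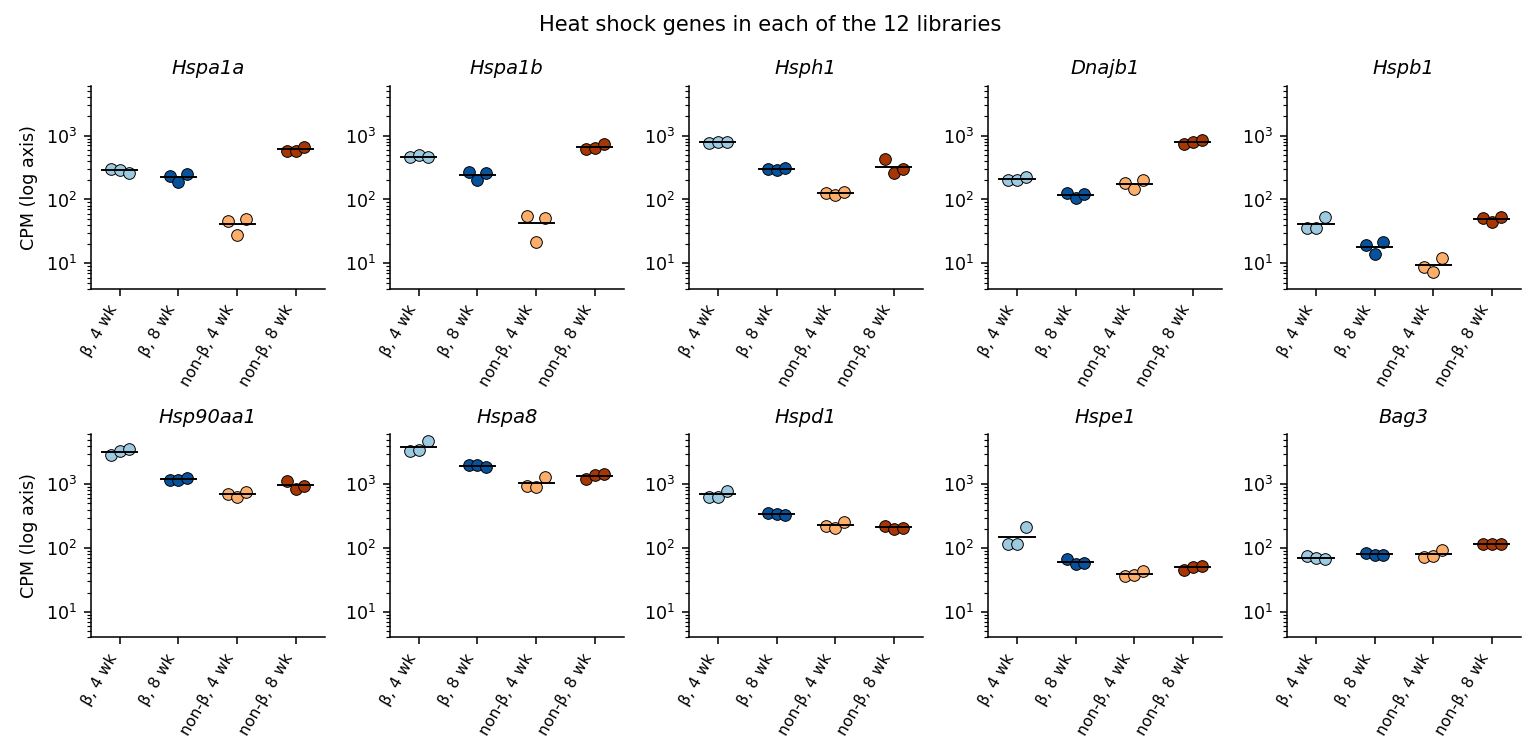
CPM of the 10 heat shock genes in each of the 12 libraries, on a log axis (points, replicates 1 to 3 from left to right; lines, group means). Hspa1a and Hspa1b are lowest in 4-week non-β-cells and highest in 8-week non-β-cells, while Hsp90aa1, Hspa8, Hspd1 and Hspe1 are highest in 4-week β-cells.

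Over the 10 genes the median log2 change with age was 0.94 in non-β-cells and -0.98 in β-cells, against 0.01 and 0.02 over all tested genes. Every β-cell library at 8 weeks was below every one at 4 weeks for 9 of the 10 genes, all but Bag3, a pattern that 19.6% of tested genes show. Every non-β-cell library at 8 weeks was above every one at 4 weeks for 8 of the 10, all but Hspa8 and Hspd1, which 19% of tested genes show. Both held for 7 of the 10 and for 1.69% of tested genes. The genes were selected on these contrasts, so the counts describe the selection. The difference between the age changes, β-cells minus non-β-cells, ran from -5.01 (SE 0.36) for Hspa1b to -0.37 (SE 0.15) for Bag3, with a median of -2.31. Hsp90aa1, Hspa8 and Hspe1 had the same order of group means, rising from 4-week non-β-cells over 8-week non-β-cells and 8-week β-cells to 4-week β-cells.

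The makeup of the group also changed. The summed level of the 10 genes was 9774 ± 1268 CPM in 4-week β-cells, 4528 ± 81.8 CPM in 8-week β-cells, 2479 ± 367 CPM in 4-week non-β-cells and 5138 ± 238 CPM in 8-week non-β-cells. Hspa8 and Hsp90aa1 together took 68.3% to 74.5% of this sum in the 9 libraries of the first 3 of these groups. In 8-week non-β-cells they took 44.6% to 45.5%. Per length, the mean level in that group was 315 CPM per kb for Hspa8, 248 for Dnajb1, 246 for Hsp90aa1, 237 for Hspa1b and 205 for Hspa1a, whereas at 4 weeks it was 242 for Hspa8, 178 for Hsp90aa1, 54.8 for Dnajb1, 15.3 for Hspa1b and 13.8 for Hspa1a.

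**Figure D3:**
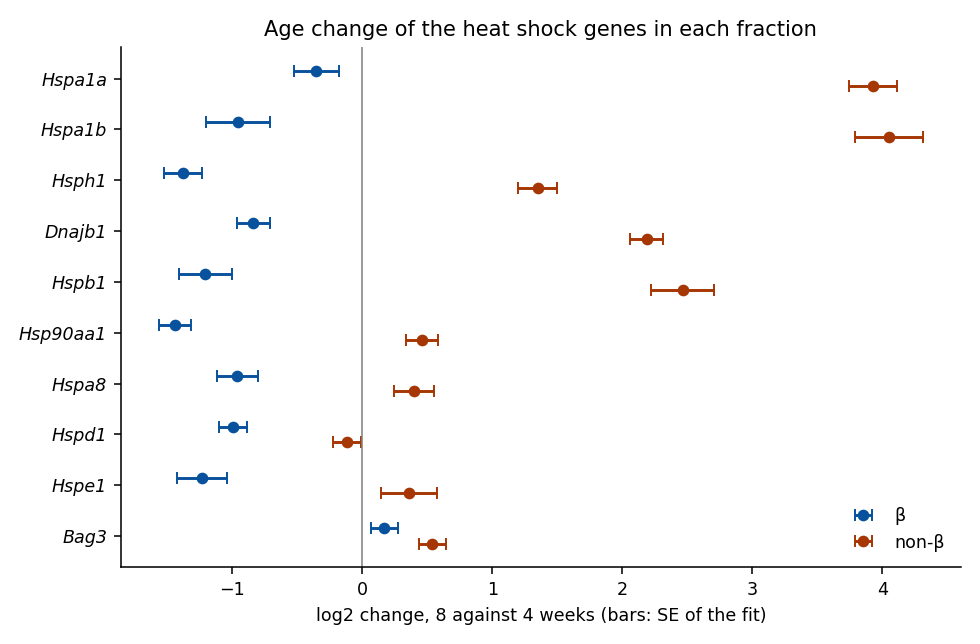
Fitted log2 change between 4 and 8 weeks for each of the 10 genes in β-cells (blue) and non-β-cells (brown); bars are SEs from limma-voom over 12 libraries. In β-cells 9 of the 10 values are below 0, and in non-β-cells the values run from -0.12 for Hspd1 to 4.05 for Hspa1b.

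The genes were chosen with earlier results known, but not on the mean difference between the fractions over both ages, which was tested. In this comparison 9 of the 10 genes passed the threshold. Of these, 7 were higher in β-cells, where 31% of all tested genes were higher, and 2 were lower in β-cells, where 31.5% of all tested genes were lower. Hsph1 (log2 difference 1.28, SE 0.10, adjusted p = 2.94e-07), Hsp90aa1 (1.26, SE 0.09, adjusted p = 5.96e-08), Hspa8 (1.21, SE 0.11, adjusted p = 8.54e-07), Hspd1 (1.15, SE 0.08, adjusted p = 4.23e-08) and Hspe1 (1.08, SE 0.14, adjusted p = 2.78e-05) were higher in β-cells. Dnajb1 was lower in β-cells (-1.25, SE 0.09, adjusted p = 8.35e-08), as was Bag3 (-0.35, SE 0.07, adjusted p = 0.00108). For Hsph1 and Dnajb1 this mean joins unlike ages. The difference for Hsph1 was 2.64 (SE 0.15) at 4 weeks and -0.09 (SE 0.15) at 8 weeks. For Dnajb1 it was 0.26 (SE 0.13) at 4 weeks and -2.77 (SE 0.13) at 8 weeks.

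Hspa1a (0.70, SE 0.12, adjusted p = 0.000315), Hspa1b (1.05, SE 0.18, adjusted p = 0.000201) and their sum (0.90, SE 0.16, adjusted p = 0.000245) were higher in β-cells on this mean, but the mean joins differences of opposite sign. At 4 weeks the mean of the sum in β-cells was 9 times that in non-β-cells, and at 8 weeks the mean in non-β-cells was 2.72 times that in β-cells. Hspb1 did not pass (0.34, SE 0.16, adjusted p = 0.0749), but passed without β-cell replicate 2 at 8 weeks (adjusted p = 0.0278) or non-β-cell replicate 3 at 4 weeks (adjusted p = 0.0389). Its difference also changed sign, from 2.18 (SE 0.24) at 4 weeks to -1.49 (SE 0.20) at 8 weeks. Hspa8, Hspd1, Hsp90aa1 and Hspe1 were higher in β-cells at both ages, without overlap between fractions, by 3.7-fold, 3.02-fold, 4.63-fold and 3.81-fold at 4 weeks and by 1.44-fold, 1.64-fold, 1.23-fold and 1.22-fold at 8 weeks.

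The wider chaperone network was followed in 104 other genes in 9 lists, of which 97 were tested. In β-cells, 30 of the 97 fell with age, where 9.35% of all tested genes fell, and 4 rose, where 8.59% of all tested genes rose. In non-β-cells, 9 rose, where 11.6% of all tested genes rose, and 7 fell, where 4.8% fell. The median log2 change was -0.05 in non-β-cells and -0.19 in β-cells, beside 0.01 and 0.02 over all tested genes. For the interaction, which subtracts the non-β-cell from the β-cell age change, 17 had a negative value past the threshold, as did 3.33% of all tested genes, and 4 a positive one, as did 1.8%.

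Of HSP90 and its cochaperones, 8 of 13 fell and none of the 13 rose in β-cells. Hsp90ab1, the constitutive HSP90 gene, fell by 0.81 on the log2 scale in β-cells (SE 0.11, adjusted p = 0.000305), and its non-β-cell level rose by 0.45 (SE 0.11, adjusted p = 0.011). Stip1, the adaptor that joins HSP70 to HSP90, had changes of -1.003 (SE 0.11, adjusted p = 8.3e-05) and 0.39 (SE 0.12, adjusted p = 0.034). The non-β-cell rise of Hsp90ab1 missed the threshold without replicate 1 (adjusted p = 0.0753) or 2 (adjusted p = 0.0555) at 4 weeks. That of Stip1 missed it in 9 of the 12 omissions of a library, all but β-cell replicate 3 at 4 weeks and non-β-cell replicates 3 at 4 and 1 at 8 weeks, with adjusted p-values of 0.0519 to 0.159. Cacybp fell in β-cells (-1.25, SE 0.15, adjusted p = 9.88e-05) and had a non-β-cell change of -0.01 (adjusted p = 0.97). The interaction passed the threshold for Hsp90ab1 (-1.26, adjusted p = 0.000406), Stip1 (-1.39, adjusted p = 0.000281) and Cacybp (-1.24, adjusted p = 0.00489).

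Among the J-domain proteins, 3 of 11 fell in β-cells and 3 of 11 rose in non-β-cells. Dnaja1, a major cytosolic HSP70 partner, fell from 337 ± 40.9 to 184 ± 8.71 CPM in β-cells (log2 change -0.86, SE 0.13, adjusted p = 0.000644) and rose from 106 ± 5.42 to 212 ± 39.1 CPM in non-β-cells (0.98, SE 0.13, adjusted p = 0.000183). Dnaja4 changed by -0.58 (adjusted p = 0.00211) and 1.09 (adjusted p = 1.72e-05). Dnajb4 rose in non-β-cells (1.06, SE 0.15, adjusted p = 0.000231) and was at 0.17 in β-cells (adjusted p = 0.544), and Dnajb2 fell in β-cells (-1.20, SE 0.10, adjusted p = 4.45e-06). All 4 had a negative interaction past the threshold, of -1.85, -1.67, -0.90 and -1.06 in that order, with adjusted p-values from 3.37e-05 to 0.0368. That of Dnajb4 missed the threshold in 8 of the 12 omissions of a library, all but replicate 3 of both fractions at 4 weeks and non-β-cell replicates 2 at both ages, with adjusted p-values of 0.0545 to 0.113.

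Of the listed HSP70 family and exchange factor genes, 2 of 15 tested were higher and 2 lower in β-cells, 13.3% each. Of all tested genes, 8.59% were higher and 9.35% lower. Hspa4l, an HSP110 relative of Hsph1, went from 126 ± 13.3 to 42.2 ± 2.46 CPM in β-cells (-1.57, SE 0.12, adjusted p = 3.36e-06), the strongest fall in the lists, and from 45.3 ± 5.73 to 31.7 ± 3.04 CPM in non-β-cells (-0.50, SE 0.13, adjusted p = 0.0209). The non-β-cell value missed the threshold without replicate 2 at 4 weeks or replicates 2 or 3 at 8 weeks, with adjusted p-values of 0.0539 to 0.0833. Of the cytosolic chaperonin TRiC and prefoldin, 6 of 14 fell in β-cells and none passed the threshold in non-β-cells. Of the small heat shock proteins only 3 of 8 were tested, of which Hspb8, a partner of Bag3, fell in β-cells (-1.18, SE 0.13, adjusted p = 5.6e-05). Cryab rose in non-β-cells from 2.45 ± 0.50 to 7.53 ± 0.52 CPM (1.60, SE 0.29, adjusted p = 0.00172).

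Of the other heat-inducible genes, 4 of 10 fell in β-cells, while 2 rose and 2 fell in non-β-cells. Serpinh1, which encodes the collagen chaperone HSP47 of the endoplasmic reticulum (ER), fell in β-cells from 21.1 ± 1 to 9.51 ± 1.1 CPM (log2 change -1.16, SE 0.29, adjusted p = 0.0155), a change that missed the threshold without replicate 1 (adjusted p = 0.0505) or 2 (adjusted p = 0.0636) at 8 weeks. It rose in non-β-cells from 30 ± 11.5 to 114 ± 20.6 CPM (1.98, SE 0.22, adjusted p = 3.84e-05), with an interaction of -3.14 (SE 0.36, adjusted p = 0.000259). Ier5, a regulator of HSF1, rose in non-β-cells (1.66, SE 0.19, adjusted p = 5.2e-05). Zfand2a fell in both fractions (-1.01, adjusted p = 4.88e-05, and -0.57, adjusted p = 0.00326).

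The heat shock factor genes themselves did not pass the threshold with age in either fraction. On the mean of both ages Hsf4 was higher in β-cells (1.58, SE 0.25, adjusted p = 9.83e-05), while Hsf1 and Hsf2 did not pass. Hsf1 was at 53.3 ± 2.32, 45.9 ± 3.35, 50.7 ± 3.7 and 50.1 ± 1.26 CPM in β-cells at 4 and 8 weeks and non-β-cells at 4 and 8 weeks, with log2 age changes of -0.22 (SE 0.10, adjusted p = 0.142) and -0.01 (SE 0.10, adjusted p = 0.952). Hsf2 changed by -0.04 (SE 0.14, adjusted p = 0.877) and -0.16 (SE 0.16, adjusted p = 0.567). HSF1 is regulated mainly after translation, which mRNA levels do not show.

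Of the mitochondrial chaperones and proteases other than Hspd1 and Hspe1, 4 of 12 fell in β-cells and 3 of 12 in non-β-cells. Hspa9, the mitochondrial HSP70, fell in non-β-cells (-0.85, SE 0.09, adjusted p = 2.98e-05) and by less in β-cells (-0.28, SE 0.09, adjusted p = 0.0457), an interaction of 0.57 (adjusted p = 0.022). The protease gene Lonp1 fell in non-β-cells (-0.85, SE 0.09, adjusted p = 2.47e-05) and was at -0.11 in β-cells (adjusted p = 0.397). The Hspa9 change in β-cells missed the threshold in 10 of the 12 omissions of a library, all but non-β-cell replicates 3 at 4 and 1 at 8 weeks, with adjusted p-values of 0.0529 to 0.13. Its interaction missed it in 7 omissions, those of β-cell replicates 1 and 2 at 4 weeks, every β-cell library at 8 weeks and non-β-cell replicates 2 and 3 at 8 weeks (0.0522 to 0.0854).

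ER chaperones and ER stress genes showed 2 of 15 higher and 2 lower in β-cells, and 1 lower in non-β-cells. The β-cell shares were 13.3% each, beside 8.59% and 9.35% of all tested genes. Hspa5, the ER HSP70 BiP, fell in β-cells (-0.44, SE 0.12, adjusted p = 0.0209) and was at 0.26 in non-β-cells (SE 0.12, adjusted p = 0.17), with an interaction of -0.70 (adjusted p = 0.0283). Without any of the β-cell libraries at 8 weeks its β-cell change missed the threshold (adjusted p = 0.0575 to 0.0714). The interaction missed it without any of these, β-cell replicate 1 and non-β-cell replicates 1 and 2 at 4 weeks, or non-β-cell replicate 3 at 8 weeks (0.0606 to 0.0838). The 4 listed genes that rose in β-cells were Hspa13, Bag2, Hyou1 and Dnajc3, named here after their values were seen.

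**Figure D4:**
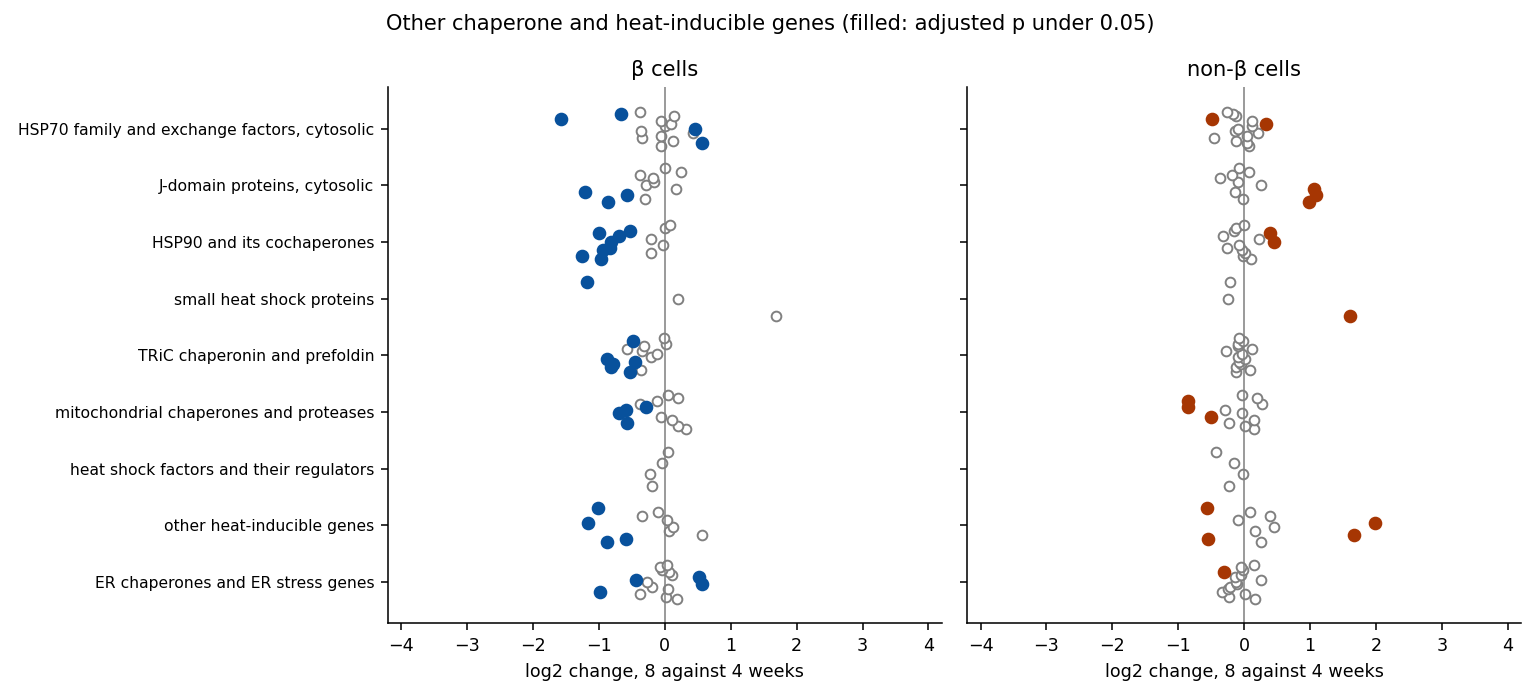
Log2 change between 4 and 8 weeks of the 97 tested genes of the 9 other lists, in β-cells (left) and non-β-cells (right); each point is a gene, and filled points have an adjusted p under 0.05 (limma-voom). Filled points lie mostly left of 0 in β-cells (30 of 34) and on both sides in non-β-cells (9 right, 7 left).

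Between the fractions, 70 of the 97 other genes were higher in β-cells and 8 lower on the mean of both ages, compared with the shares of 31% and 31.5% given above. The metallothionein genes Mt2 (2.50, SE 0.12, adjusted p = 2.33e-09) and Mt1 (2.23, SE 0.13, adjusted p = 1.13e-08), which are also induced by metals, Hspa12a (2.27, SE 0.16, adjusted p = 8.56e-08), Hspb6 (2.08, SE 0.19, adjusted p = 8.88e-07) and Lonp1 (1.75, SE 0.06, adjusted p = 9.15e-11) were higher in β-cells. Serpinh1 was lower (-1.999, SE 0.18, adjusted p = 7.9e-07).

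For 10175 genes with a mean log2 CPM of at least 3, log2 CPM was compared with that of the summed Hspa1 copies over the 12 libraries. Outside the 10 heat shock genes, the 10 that followed it most closely were Tnip1, Ifngr2, Inava, Ccnd3, Csrp1, Plekho2, Unc5b, Loxl2, Ifngr1 and Myd88. Their Pearson's r ran from 0.954 down to 0.885. The 12 points share the 4 groups and the library scaling, so r is a description. None of these followers is in the chaperone lists, whose genes above that level could also rank. Within the group, r with the sum was 0.935 for Hspb1, 0.751 for Hsph1, 0.572 for Dnajb1 and 0.284 for Hspd1. Tnip1, which encodes a ubiquitin-binding inhibitor of NF-κB signalling, had 102 ± 8.78 and 79.2 ± 1.6 CPM in β-cells at 4 and 8 weeks and 57.8 ± 11.9 and 123 ± 8.23 CPM in non-β-cells. Its log2 range was narrower than that of the Hspa1 sum, with age changes of -0.36 and 1.11.

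Levels of cell type markers and immediate early genes are given beside these values, and their part in the results was not tested. Insulin and glucagon transcripts matched the labels: Ins2 was at 24950 to 67350 CPM in β-cell libraries and 409 to 1687 in non-β-cell libraries, and Gcg at 1413 to 9039 and 102900 to 132600 CPM. The summed level of 8 endothelial markers was 49.8 to 93.8 CPM in 4-week non-β-cells and 388 to 1059 CPM at 8 weeks, and all 8 rose past the threshold. Pecam1 rose by 3.09 on the log2 scale (SE 0.37, adjusted p = 8.9e-05). For 9 pericyte or fibroblast markers the ranges were 107 to 308 and 697 to 1086 CPM, and all 9 rose, Col3a1 by 2.04 (SE 0.35, adjusted p = 0.00117). Of 8 duct markers 7 rose in non-β-cells, from a summed 1134 to 1546 CPM to 3220 to 3486 CPM. In β-cells the duct sum was 1722 to 2441 CPM at 4 weeks and 2288 to 2421 CPM at 8 weeks, all above the 4-week non-β-cell range. The duct markers Sox9 and Cftr had non-β-cell means of at most 14.4 and 7.34 CPM, while that of Spp1 went from 366 to 1583 CPM. In β-cells Spp1 went from 99.2 to 943 CPM, while Krt8 and Krt18 fell. On the mean of both ages Krt7 and Krt19 were higher in β-cells, and 5 of the 8 duct markers were lower. These duct markers are named after their values were seen. Of 10 acinar markers 3 rose in non-β-cells, from 60.2 to 141 CPM to 263 to 890 CPM, Cpa1 among them (4.47, SE 1.36, adjusted p = 0.0392). Without any non-β-cell library at 4 weeks, or β-cell replicate 3 at 4 weeks, Cpa1 missed the threshold (0.0519 to 0.124).

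Within 8-week non-β-cells, the endothelial sum was 1059, 388 and 574 CPM in replicates 1, 2 and 3, and the Hspa1 sum was 1191, 1212 and 1412 CPM. Whether these sums are related was not tested, and 3 libraries are too few to tell. In β-cells the 8 endothelial markers summed to between 6.86 and 16.4 CPM at both ages. The 6 alpha-cell markers summed to 5625 to 9406 CPM in 4-week β-cells and 1518 to 2572 CPM at 8 weeks, and all 6 fell, Gcg by 1.80 on the log2 scale (SE 0.20, adjusted p = 7.4e-05). Of 3 delta-cell markers, 1 fell in β-cells and Sst passed the threshold in non-β-cells (0.88, SE 0.28, adjusted p = 0.0466). It missed it there in 9 of the 12 omissions of a library, all but replicate 3 of both fractions at 4 weeks and non-β-cell replicate 1 at 8 weeks (0.0506 to 0.163). In β-cells Sst was at 0.81 (adjusted p = 0.0512), and it passed without replicate 3 of the β-cells (1.19, adjusted p = 0.000891) or of the non-β-cells (adjusted p = 0.0372) at 4 weeks. Of 15 leukocyte markers, 13 were too low to test, and Ptprc, which encodes the CD45 of the sort, was at 0 to 0.789 CPM in every library. Of the 2 tested, Cd68, a macrophage lysosomal marker, rose in both fractions, from 48.8 ± 1.31 to 69.6 ± 5.12 CPM in β-cells (0.51, SE 0.12, adjusted p = 0.0136) and from 9.15 ± 1.54 to 16.5 ± 3.4 CPM in the others (0.81, SE 0.19, adjusted p = 0.0106). Cd79a did not pass in either (0.22, SE 0.35, adjusted p = 0.705, and 1.61, SE 1.03, adjusted p = 0.343), with means of at most 3.59 CPM. The PP-cell marker Ppy fell in β-cells, and of 3 tested Schwann-cell markers 1 rose and 1 fell in β-cells and 1 rose in non-β-cells. In β-cells 7 of 10 acinar markers, 1 of 9 pericyte or fibroblast markers and 2 of 8 duct markers also rose, and 2 duct markers fell. Beta-cell markers rose in 6 of 9 cases in β-cells and in 3 of 9 in non-β-cells, where 1 fell.

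The 15 immediate early genes, which respond within minutes to cell handling and other stimuli, summed to 25951 to 28826 CPM in 4-week non-β-cells and 24019 to 28352 CPM at 8 weeks. In β-cells they summed to 2025 to 2459 CPM and 3060 to 3706 CPM. All 15 were lower in β-cells on the mean of both ages, for example Egr1 (-3.72, SE 0.10) and Atf3 (-4.27, SE 0.10). With age, 11 rose and 2 fell in β-cells, and 3 rose and 2 fell in non-β-cells. Those that rose in non-β-cells were Ier3 (3.21), Zfp36 (0.93) and Jund (0.55), and those that fell were Fos and Btg2 (-0.46). All of these but Fos are named after their values were seen. Fos rose in β-cells (1.20, SE 0.14, adjusted p = 0.000104) and fell in non-β-cells (-0.53, SE 0.15, adjusted p = 0.0239). The non-β-cell value missed the threshold without replicates 1 or 2 at 4 weeks or 1 or 3 at 8 weeks (0.0627 to 0.0869). Jun changed by 0.24 (adjusted p = 0.176) and 0.07 (adjusted p = 0.739).

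**Figure D5:**
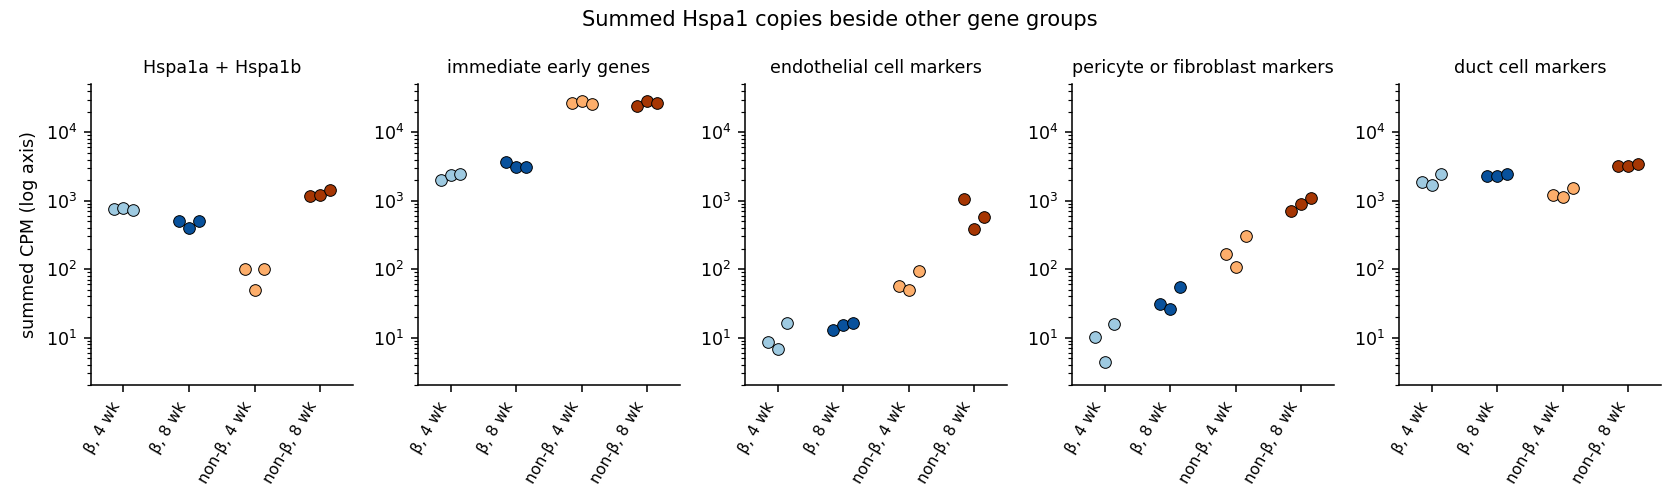
Summed CPM on a log axis in each of the 12 libraries for Hspa1a plus Hspa1b, 15 immediate early genes, 8 endothelial, 9 pericyte or fibroblast and 8 duct cell markers. In non-β-cells the Hspa1 sum, endothelial, pericyte or fibroblast and duct sums are higher at 8 than at 4 weeks, while the immediate early ranges overlap (25951 to 28826 and 24019 to 28352 CPM).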

How the data were processed

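RNA-seq was analysed in 12 samples, 4 groups of 3, taken from the sample labels. Per the methods of the study, the authors cleaned 100-base single-end reads in fastp, quantified them by kallisto against the Ensembl 98 mouse transcriptome (GRCm38) and combined transcripts into genes by tximport. The deposited values are estimated counts per gene, unscaled, and tool versions are not given in the sources used here. The reference transcripts are not of the NOD strain.

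After rounding to whole numbers, 15598 genes exceeded 1 CPM in 3 or more samples. They were scaled by TMM in edgeR 4.0.16, and limma-voom (limma 3.58.1 in R 4.3.3) tested them two-sided in a single model of the 4 group means with the filter, scaling and test of the study. The prior count of log2 CPM was 2. The model was tested on simulated data. Alternatives were DESeq2 1.42.0, the quasi-likelihood test of edgeR, other scalings and filters, sample weights, fewer groups, a replicate block, removal of hormone and mitochondrial genes, and omission of each library. Coordinates come from GENCODE M21 and promoters from RefSeq, both GRCm38.

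The members and lists were chosen with earlier results of these data known. Named other genes are, per comparison, the 6 listed genes with the largest change with adjusted p under 0.05 and mean log2 CPM of at least 3, plus Hsf1, Hsf2, Hsp90ab1, Dnaja1, Hspa5, Hspa9, Serpinh1, Fos, Jun, Egr1, Atf3 and selected markers. Ddit3 had 2 identifiers, of which the expressed one was used. Hspa1a, Hspd1, Hspe1, Hspa8 and Bag3 overlap other annotated genes, the first 3 on the opposite strand.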

Additional observations from a re-analysis of the deposited data

Results flagged for a closer look

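For 7 of the 10 heat shock genes every β-cell library at 8 weeks lay below every one at 4 weeks, while every non-β-cell library at 8 weeks lay above every one at 4 weeks. Both patterns together held for 1.69% of all tested genes. The difference between these age changes, β-cells minus non-β-cells on the log2 scale, was -4.28 for Hspa1a, -5.01 for Hspa1b, -2.73 for Hsph1, -3.03 for Dnajb1, -3.67 for Hspb1, -1.90 for Hsp90aa1 and -1.59 for Hspe1. These differences chose the genes and were not tested, so the count of 7 describes the selection.

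Among the other named chaperone genes, the age change differed between the fractions past the threshold of limma-voom's interaction test for Serpinh1 (-3.14), Dnaja1 (-1.85), Dnaja4 (-1.67), Stip1 (-1.39), Hsp90ab1 (-1.26), Cacybp (-1.24), Ier5 (-1.10), Hspa4l (-1.07), Dnajb2 (-1.06), Hspb8 (-0.97), Dnajb4 (-0.90) and Hspa5 (-0.70), with the lower change in β-cells. The mitochondrial genes Lonp1 (0.73) and Hspa9 (0.57) had the opposite sign. The same test was passed by Fos (1.73), Egr1 (0.87), Atf3 (-1.18) and Gcg (-1.97). The interaction of Ier5 missed the threshold in 9 of the 12 omissions of a library, all but β-cell replicate 2 and non-β-cell replicate 3 at 4 weeks and non-β-cell replicate 2 at 8 weeks, with adjusted p-values of 0.0542 to 0.0958. That of Egr1 missed it without β-cell replicate 1 at either age, non-β-cell replicates 1 or 2 at 4 weeks or replicate 3 at 8 weeks, with adjusted p-values of 0.0521 to 0.0647. The causes were not tested.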

How the results depend on the processing

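Of 1022 alternative values for the 10 genes and the Hspa1 sum, none changed sign, 5 tested values crossed the threshold, all of them Hspb1 passing between the fractions, and 15 untested values moved by at least the SD within groups. The median difference between age changes was -2.31, and -1.90 when Hspa1a and Hspa1b were summed, which leaves 9 values. Of the 104 other genes, sample quality weights raised the number past the threshold from 16 to 31 in non-β-cells and from 21 to 36 for the interaction, while calls over all genes went from 2561 to 3701 and from 800 to 2384. In β-cells these weights gave 14 higher and 36 lower, against 4 and 30, with 5382 against 2799 calls over all genes. The cause was not tested. No label ties equal numbers to a shared preparation, and whether they pair the samples is not known: correlations of their deviations across genes ran from 0.08 to 0.306 between fractions at 4 weeks and from 0.00797 to 0.0487 at 8 weeks, and not every sample correlated best with its own number. A replicate block gave 38 other genes for the interaction, with 1879 calls over all genes, and Hspb1 passed between the fractions (adjusted p = 0.00401). Among the named genes it gained 8 calls and lost 2, those of Hspa4l in non-β-cells (adjusted p = 0.0523) and Hspa9 in β-cells (adjusted p = 0.0821). Leaving out each library in turn gave medians of -2.44 to -2.16, 9 to 10 of the 10 genes between the fractions, and, of the other genes, 27 to 35 in β-cells, 12 to 23 in non-β-cells, 15 to 24 for the interaction and 72 to 81 between the fractions. Calls over all genes also varied between these omissions. Without both 4-week samples numbered 3, added after the data were seen, the interaction count was 31, against 21 with all libraries. Calls over all genes for the interaction rose from 800 in that setting as well, so the higher count was not particular to the chaperone genes. With 3 pools a group, small changes can be missed.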
